A study of Mus musculus with 27 samples.

Results

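The genes described here are the ligands and receptors of the 4 classical axon guidance systems: semaphorins with plexins and neuropilins, ephrins with Eph receptors, Slits with Robos, and netrins with their receptors Dcc and Unc5. They were selected by a name pattern applied to the deposited RNA tables, which gave 74 of the 24293 gene symbols listed. The choice was made with earlier results of these data known. Of these, 71 encode guidance ligands or receptors, and 3 others share the spelling: Plxna4os1, a long noncoding RNA gene inside Plxna4, Unc50, a Golgi protein gene, and Unc5cl. The families held 20 semaphorins, 9 plexins, 2 neuropilins, 8 ephrins, 14 Eph receptors, 3 Slits, 4 Robos, 6 netrins and netrin-Gs, and 5 netrin receptors.

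The study turned microglia, the resident immune cells of the brain, towards neurons with a factor that the labels call ND1. There were 15 RNA libraries, 3 in each of 5 groups. Control and ND1 microglia were each taken on days 2 and 7, and cortical neurons in culture formed the fifth group. All came from wild-type C57BL/6 mouse cortex at postnatal day 1. ND1 cells received lentiviruses for ND1 and for M2rtTA, a doxycycline-dependent activator. They were then kept in Neurobasal medium with B27, BDNF, GDNF and NT3, and doxycycline was given on a single occasion. The neurons were kept in Neurobasal medium with B27, and the labels give no day for them. The labels name no medium or virus for the control cells, so ND1 and the change of medium cannot be told apart. CpG methylation came from 1 control and 1 ND1 bisulfite library, with no day in their labels, and 10 chromatin immunoprecipitation samples were not analysed here.

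Guidance ligands steer growing axons by binding receptors on the growth cone. Semaphorins act through plexins, and the secreted class 3 semaphorins mostly need a neuropilin as the binding partner of a type A plexin. Ephrins are membrane-bound and bind Eph receptor tyrosine kinases on a neighbouring cell, Slits repel through Robos, and netrins attract through Dcc or repel through Unc5. Several of the same proteins are known from immune cells, among them Sema4D, plexin B2 and the neuropilins.

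Levels are FPKM, fragments scaled to transcript length and library size, and can be compared between genes because they are given per length. The values of one library summed to between 429013 and 739846 FPKM, and 10709 to 12092 genes reached 1 FPKM. The sums differed by group, at 679238 to 739846 in control and 600293 to 618555 in ND1 day 2 libraries. They were 429013 to 483402 in ND1 day 7 and neuron libraries. The summed level of 15 myeloid markers was 14441 to 14948 FPKM in control day 2 and 20455 to 21589 in control day 7 libraries. It was 11426 to 12371 in ND1 day 2, 871 to 1190 in ND1 day 7 and 40.4 to 44.2 in neurons. The summed level of 15 neuron markers was 28.2 to 38.6 FPKM over the control libraries, 824 to 1023 in ND1 day 2, 5093 to 5098 in ND1 day 7 and 4113 to 4413 in neurons. These are bulk samples, so more cells of a type and more RNA per cell cannot be told apart. The labels do not say that replicates were separate cultures, and p-values measure only the spread between these samples.

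Of the 74 symbols, 63 reached 1 FPKM in at least 3 libraries and were tested, 61 of them ligands or receptors. A gene that passes this filter only through the group where it is high had to differ, so counts over the tested members describe them and are no support for a change of the whole family. The 11 untested symbols were Epha1, Epha2, Ephb4, Ntn5, Robo3, Robo4, Sema3b, Sema3d, Sema3g, Slit3 and Unc5cl. Among these, the highest single value was 1.35 FPKM, for Sema3b in a control day 7 library. A change was called at an adjusted p under 0.05 and at least 1 log2 unit, with limma on log2(FPKM + 1) and Benjamini-Hochberg adjustment over all 13602 tested genes. The added 1 FPKM understates the change of low genes.

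**Figure D1:**
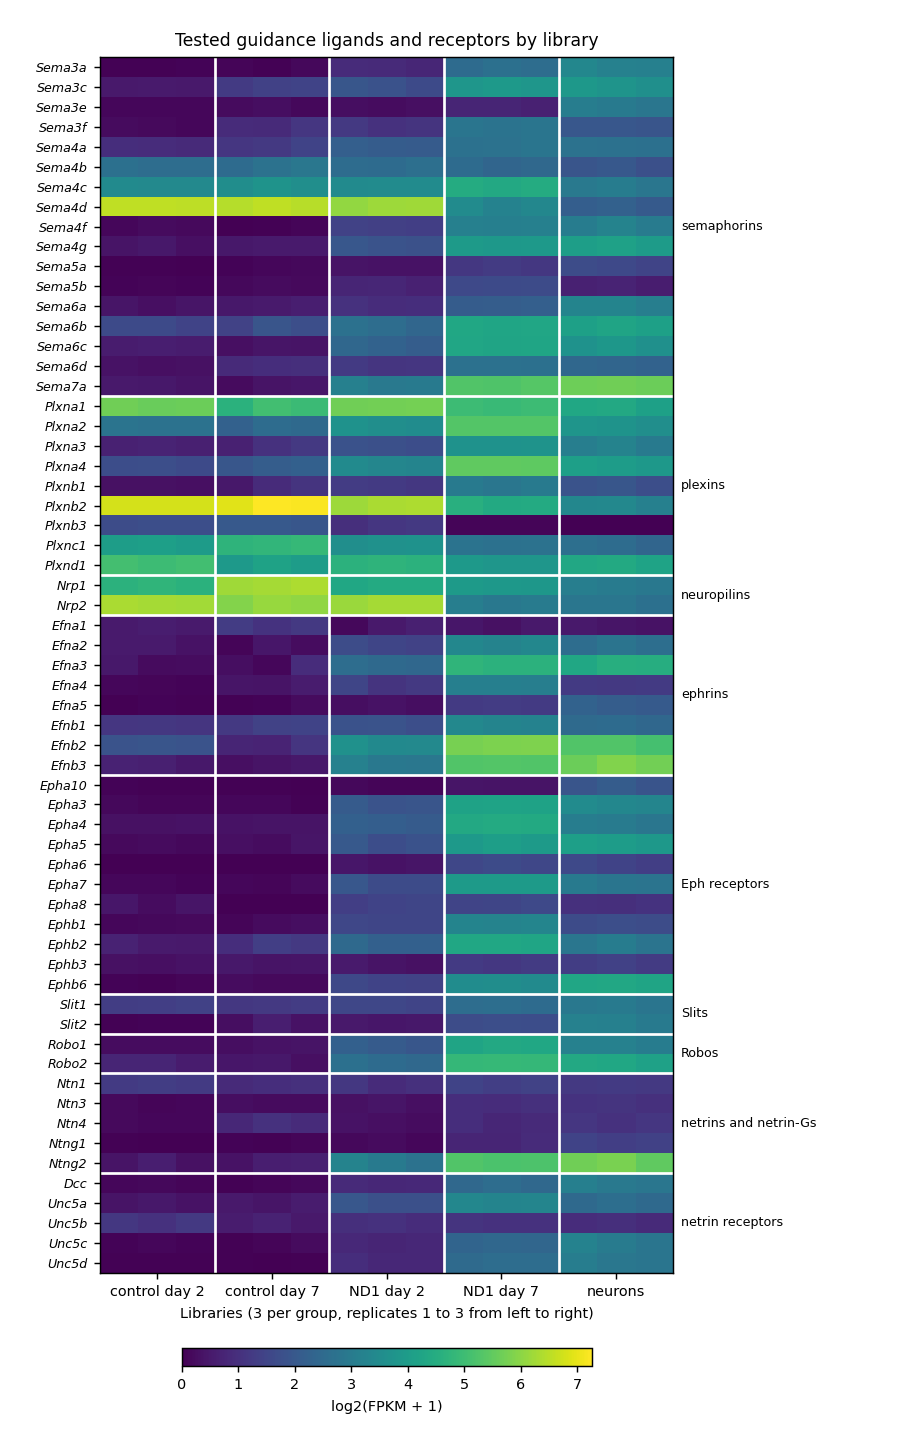
Each row is a tested ligand or receptor, grouped by family, each column is a library, and colour gives the level as log2(FPKM + 1). Most ephrins and Eph receptors and both Robos were dark in the control libraries and bright in ND1 day 7 cells and neurons, while Sema4d, Plxnb2, Nrp1 and Nrp2 showed the opposite order.

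At day 7, the guidance genes of ND1 cells differed from control microglia in both directions. Of the 63 tested members, 42 were higher, where 25.7% of all tested genes were, and 8 were lower, where 24.5% of all tested genes were. The median log2 change was 1.83 over the tested members and 0.04 over all tested genes. The 8 lower members were Sema4d, Nrp1, Nrp2, Plxnb2, Plxnb3, Plxnc1 and the non-guidance symbols Plxna4os1 and Unc50. The libraries of the 2 groups did not overlap for any of these 50 genes. This largely follows from the call, here and for called genes below, and it was not counted over all genes.

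Among the ligands, 7 of 8 tested ephrins were called higher and none was called lower. The day 7 shares of all tested genes, 25.7% higher and 24.5% lower, stand beside this and each family count below. Efnb2, which encodes ephrin-B2, a transmembrane ligand of the EphB receptors and EphA4, read 0.680, 0.655 and 1.16 FPKM in the control day 7 libraries. The ND1 day 7 libraries read 53.9, 56.1 and 56.5 FPKM. All 3 ND1 libraries were thus far above every control, a log2 change of 4.96 ± 0.09 (SE, adjusted p = 2.23e-15). Efnb3, another transmembrane ephrin, rose by 4.92 ± 0.09 on the log2 scale (adjusted p = 1.36e-15), from 0.237, 0.298 and 0.370 to 37.9, 38.5 and 38.3 FPKM. Efna3, a lipid-anchored ephrin, went from 0.213, 0.0943 and 0.884 to 25.7, 24.1 and 24.3 FPKM. The exception was Efna1, which read 1.10 to 1.43 FPKM in control day 7 and 0.257 to 0.416 FPKM in ND1 day 7 libraries, a log2 difference of -0.76 that missed the size required for a call.

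Of 11 tested Eph receptors, 9 were higher and none lower. Epha4, a receptor that binds ephrins of both classes, read 0.284, 0.293 and 0.305 FPKM in control day 7 and 19.7, 20.6 and 20.0 FPKM in ND1 day 7 libraries, a log2 change of 4.03 ± 0.05 (SE, adjusted p = 2.23e-16). Ephb2, an ephrin-B receptor, read 0.950 to 1.56 and then 18.4 to 19.1 FPKM. Ephb6, whose kinase domain is known to lack activity, read 0.127 to 0.184 and then 10.1 to 10.8 FPKM. Ligands and receptors of this system were therefore both at high levels in the same ND1 cultures. The summed ephrin level went from 4.30 to 6.25 FPKM in control day 7 libraries to 145.5 to 146.1 FPKM in ND1 day 7 libraries. The summed Eph receptor level went from 2.96 to 3.64 FPKM to 110.0 to 113.4 FPKM. The 2 receptors not called were Ephb3, at 1.27 to 1.38 FPKM in ND1 day 7, and Epha10, at 0.296 to 0.318 FPKM.

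Semaphorins exchanged their leading member. In control day 7 libraries Sema4d, a class 4 transmembrane semaphorin known as CD100 on immune cells, read 86.8, 92.8 and 88.6 FPKM. In ND1 day 7 libraries it read 10.3, 8.32 and 9.23 FPKM, a log2 change of -3.14 ± 0.07 (SE, adjusted p = 5.96e-15). All ND1 values lay below all control values. Sema7a, a lipid-anchored semaphorin that binds plexin C1 and integrins, went the other way, from 0.162, 0.303 and 0.363 to 38.3, 37.2 and 39.3 FPKM, a log2 change of 4.95 ± 0.07 (SE, adjusted p = 2.23e-16). Altogether 13 of 17 tested semaphorins were higher and 1 was lower. Sema4c, which signals through plexin B2, read 10.9 to 12.2 FPKM in control and 19.6 to 21.1 FPKM in ND1 day 7 libraries, less than the size of a call. Summed over the family, the level was 111.4 to 121.2 FPKM in control day 7 and 171.9 to 176.9 FPKM in ND1 day 7 libraries. Sema4d made up most of the control sum and little of the ND1 sum.

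Plexins, the semaphorin receptors, moved in both directions. Plxna2, Plxna3 and Plxna4 of type A and Plxnb1 of type B were called higher, while Plxnb2, Plxnb3 and Plxnc1 were called lower. Plxnb2, a receptor for class 4 semaphorins that is also known from myeloid cells, read 122, 152 and 147 FPKM in control day 7 libraries, the highest level of any member. It read 22.6, 20.2 and 20.8 FPKM in ND1 day 7 libraries, a log2 change of -2.66 ± 0.08 (SE, adjusted p = 3.38e-13). Plxna4 moved against it, from 2.82, 3.45 and 3.67 to 43.4, 43.7 and 43.1 FPKM, a log2 change of 3.37 ± 0.08 (SE, adjusted p = 1.61e-14). Plxna1, a further type A receptor, was high in both groups, at 24, 32.6 and 29.9 FPKM in control and 30.5, 29.2 and 30.5 FPKM in ND1 day 7 libraries. These ranges overlapped, and the log2 difference was 0.07 ± 0.09 (SE, adjusted p = 0.47). Plxnd1 also overlapped, at 13.8 to 17.3 and 13 to 14 FPKM.

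Plxna4os1 lies at chr6:32511141-32515576 (mm10), within Plxna4 at chr6:32144543-32588192. Its level fell from 26.0, 21.4 and 24.7 to 0.761, 0.564 and 0.638 FPKM, a log2 change of -3.92 ± 0.06 (SE, adjusted p = 6.27e-16), while Plxna4 rose. Whether the authors' counting used strand is not given in the sources used here. Without strand, reads of Plxna4os1 and of its antisense partner cannot be told apart, so both values are uncertain.

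Both neuropilins fell. Nrp1, which also binds vascular endothelial growth factor, read 74.1, 77.1 and 81.1 FPKM in control day 7 and 14.4, 13.7 and 13.4 FPKM in ND1 day 7 libraries, a log2 change of -2.40 ± 0.05 (SE, adjusted p = 1.15e-14). Nrp2 read 58.6, 69.8 and 65.5 and then 7.66, 6.52 and 7.03 FPKM, a log2 change of -3.02 ± 0.07 (SE, adjusted p = 1.12e-14). No control and ND1 libraries overlapped for either gene. The class 3 semaphorins Sema3a, Sema3c and Sema3f, whose signalling uses neuropilins with type A plexins, were higher at the same time. Sema3a reached 4.85 to 5.43 FPKM, Sema3c 12.9 to 14 FPKM and Sema3f 5.82 to 6.07 FPKM in ND1 day 7 libraries. The neuropilins and these class 3 ligands therefore moved in opposite directions, but this did not hold for the whole class. Among its untested members, Sema3b read 0.980 to 1.35 FPKM in control day 7 and 0.331 to 0.462 FPKM in ND1 day 7 libraries. Sema3d read 0.0152 to 0.105 and then 0.297 to 0.382 FPKM, and Sema3g stayed at or under 0.143 FPKM in every library.

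Sema4d, Plxnb2, Plxnc1 and the neuropilins were high in the control libraries, as were the myeloid markers, and all 14 tested myeloid markers were lower in ND1 day 7 than in control day 7 libraries. Relative to the mean of control day 7, ND1 day 7 cells held 10.4% of Sema4d, 10.9% of Nrp2, 15.1% of Plxnb2, 17.9% of Nrp1, 21.3% of Plxnc1 and 2.41% of Plxnb3. The part of the myeloid cells in these falls was not tested.

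**Figure D2:**
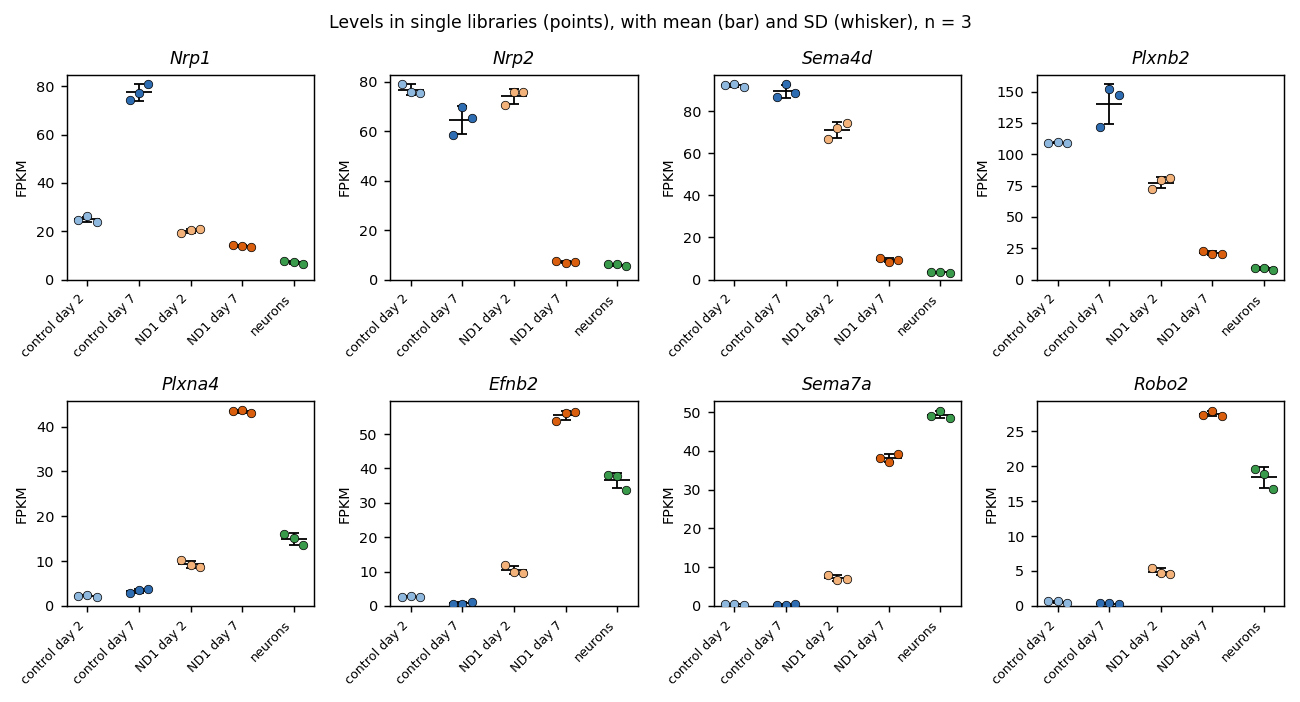
Points are FPKM in single libraries by group for 8 members, with the mean as a bar and the SD over 3 libraries as a whisker, on axes that start at 0. Nrp1, Nrp2, Sema4d and Plxnb2 were highest in control libraries and Plxna4, Efnb2, Sema7a and Robo2 in ND1 day 7 cells or neurons. Nrp2 in ND1 day 2 (70.5 to 76.1 FPKM) was still at the level of control day 2 (75.5 to 79.3 FPKM).

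Receptors of the Slit system rose more than its ligands. Robo2, at chr16:73891976-75447443, read 0.357, 0.376 and 0.223 FPKM in control day 7 and 27.4, 28.0 and 27.2 FPKM in ND1 day 7 libraries, a log2 change of 4.44 ± 0.08 (SE, adjusted p = 1.32e-15). Robo1 read 0.203, 0.288 and 0.298 and then 18, 19.6 and 18.9 FPKM. The ligand Slit1 went from 1.26, 1.31 and 1.45 to 5.09, 5.21 and 4.84 FPKM, and Slit2 from 0.214, 0.511 and 0.274 to 2.21, 2.34 and 2.30 FPKM. All 4 were called higher, and no ND1 library overlapped a control, but under quantile normalization Slit2 changed by 0.79 log2 units and was no longer called. Robo3, which acts in commissural axons, stayed at or under 0.153 FPKM in every library, and Slit3 at or under 0.695 FPKM.

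In the netrin system, most receptors were called and the tested secreted netrins were not. Of 5 netrin receptors, 4 were higher: Dcc, the attractive receptor, and Unc5a, Unc5c and Unc5d, the repulsive ones. Dcc read 0.0338, 0.0729 and 0.110 FPKM in control day 7 and 4.45, 5.01 and 4.46 FPKM in ND1 day 7 libraries, a log2 change of 2.39 ± 0.07 (SE, adjusted p = 1.35e-13). Unc5a read 0.332 to 0.471 and then 8.63 to 9.29 FPKM. Ntn1, the main secreted netrin, read 0.803 to 0.990 FPKM in control and 1.56 to 1.76 FPKM in ND1 day 7 libraries. This difference of 0.49 ± 0.06 log2 units (SE, adjusted p = 3.84e-06) was smaller than a call requires. Ntn3 read 0.157 to 0.199 and then 0.909 to 1.01 FPKM without overlap, a change of a low gene that the added 1 FPKM understates. Ntn4 overlapped, at 0.760 to 1.03 and 0.733 to 0.917 FPKM. The family's called member was Ntng2, a lipid-anchored netrin-G that sits on axons and binds a synaptic partner in place of Dcc. It read 0.291, 0.512 and 0.553 and then 38.2, 35.6 and 36.7 FPKM, a log2 change of 4.71 ± 0.12 (SE, adjusted p = 4.35e-14).

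Other guidance genes were counted from a pair of lists. Among 35 tested further cues and receptors, 26 were higher and 4 lower at day 7, where 25.7% and 24.5% of all tested genes were, with a median log2 change of 2.43. The cell adhesion molecules L1cam (5.07 ± 0.08, adjusted p = 7.79e-16), Cntn2 (4.90 ± 0.06, adjusted p = 2.01e-16) and Chl1 (4.84 ± 0.09, adjusted p = 1.49e-15) rose most on the log2 scale. Cd72, the lymphoid and myeloid receptor of Sema4D, fell by 4.45 on that scale, the chemokine receptor Cxcr4 by 2.79, the myelin glycoprotein Mag by 2.03 and the syndecan Sdc3 by 1.63. Sema4d and its immune receptor Cd72 were thus both lower, while its neural receptor Plxnb1 was higher. Plxnb2, also a receptor for class 4 semaphorins, was lower as well. At 20.2 to 22.6 FPKM in ND1 day 7 libraries it stayed above Plxnb1, at 6.25 to 6.98 FPKM. Among 56 tested genes of signalling inside the cell, 29 were higher and 10 lower, against the same 25.7% and 24.5% of all tested genes, with a median log2 change of 1.25. The collapsin response mediators Crmp1 (7.79 ± 0.08), Dpysl5 (7.26 ± 0.08) and Dpysl3 (7.11 ± 0.11), which carry semaphorin signals to the cytoskeleton, rose most. Fes, a kinase of myeloid cells and of semaphorin signalling, fell by 4.0, Itgb1 by 2.42 and Vasp by 2.35.

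At day 2, part of the same guidance genes was already higher in ND1 cells. Of the 63 tested members, 25 were called higher, where 9.09% of all tested genes were, and 0 lower, where 0.618% of all tested genes were. The median log2 change was 0.79 over the members and -0.04 over all genes. Before any requirement on size, 46 members were higher and 10 lower at an unadjusted p under 0.05, which was not counted over all genes. With quantile normalization 14 members were called higher and 1 lower. Over all tested genes, the calls then went from 1237 to 817 higher and from 84 to 159 lower. The count of higher members was 39 with a pseudocount of 0.1 FPKM, where 2367 of all tested genes were higher. In families, 8 of 11 Eph receptors, 5 of 8 ephrins, 6 of 17 semaphorins, 2 of 9 plexins, both tested Robos, 1 of 5 netrins and netrin-Gs and 1 of 5 netrin receptors were called.

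The largest day 2 changes belonged to genes that also led at day 7. Sema7a read 0.398, 0.373 and 0.307 FPKM in control day 2 and 7.95, 6.71 and 6.81 FPKM in ND1 day 2 libraries, a log2 change of 2.58 ± 0.07 (SE, adjusted p = 1.01e-12). Ntng2 went from 0.313, 0.512 and 0.252 to 8.41, 6.84 and 5.64 FPKM, and Efnb3 from 0.610, 0.565 and 0.373 to 8.18, 6.56 and 6.27 FPKM. Efna3 and Robo2 followed, with log2 changes of 2.19 ± 0.15 and 1.88 ± 0.08. Every ND1 library lay above every control for these 5 genes. All 15 neuron markers were called higher at day 2 as well, and their part in these rises was not tested.

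None of the genes that fell at day 7 was called lower at day 2. Relative to control day 2, ND1 day 2 cells held 96.5% of Nrp2, 81.3% of Nrp1, 76.9% of Sema4d, 75.1% of Plxnc1 and 70.8% of Plxnb2. Nrp2 read 79.3, 75.8 and 75.5 FPKM in control and 70.5, 75.8 and 76.1 FPKM in ND1 day 2 libraries, which overlapped. Plxnb3 and Plxna4os1 were further down, at 50.5% and 53.8%.

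Between the days, ND1 cells gained more of the guidance genes while few members were called in control microglia. Within ND1 cells, 37 members were higher at day 7 than at day 2, where 22.6% of all tested genes were, and 5 were lower, where 21.1% were. Those lower were Nrp2, Sema4d, Plxnb2, Plxnb3 and Plxna4os1. The call of Plxnb3 was lost without ND1 day 2 replicate 2 (-0.98) or replicate 3 (-0.97), with quantile normalization (-0.83) and with median-of-ratios size factors (-1.0). Efnb2 rose by 2.30 ± 0.09 log2 units between the days (SE, adjusted p = 1.23e-11), from 11.8, 9.92 and 9.70 to 53.9, 56.1 and 56.5 FPKM.

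Within control microglia, 1 member was higher at day 7, where 3.90% of all tested genes were, and 2 were lower, where 3.79% were. With a pseudocount of 0.1 FPKM these counts were 10 and 4, while those over all tested genes went from 531 and 516 to 1115 and 777. Nrp1 was the higher one, from 24.5, 26.1 and 23.9 to 74.1, 77.1 and 81.1 FPKM, a log2 change of 1.60 ± 0.05 (SE, adjusted p = 2.22e-11). Efnb2 fell from 2.62, 2.78 and 2.60 to 0.680, 0.655 and 1.16 FPKM, and Plxnd1 from 33.2, 30.3 and 32.1 to 13.8, 17.3 and 15.1 FPKM. Both falls were just past the required size, at -1.01 log2 units, and neither call remained without control day 7 replicate 1 or under quantile normalization. The Efnb2 call was also lost without control day 2 replicate 2 or control day 7 replicate 2, and that of Plxnd1 without control day 2 replicate 1 or control day 7 replicate 3. Fibroblast and mural cell markers summed to 1.54 to 2.60 FPKM in control day 2 and 25.9 to 35.7 FPKM in control day 7 libraries, and astrocyte markers to 19.8 to 21.4 and 76.1 to 80.1 FPKM. In ND1 libraries, the fibroblast and mural sum was 7.66 to 9.41 FPKM on day 2 and 40.5 to 43.0 FPKM on day 7. The astrocyte sum there was 21.2 to 23.8 and 38.7 to 39.7 FPKM. The part of such cells in the change of Nrp1 and in the ND1 comparisons was not tested.

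Whether the ND1 effect itself differed between the days was tested with an interaction term. The effect was more positive at day 7 for 34 members, where 20.5% of all tested genes were, and more negative for 7, where 20.8% were. Efnb2 had the largest positive term, 3.31 ± 0.13 log2 units (SE, adjusted p = 2.48e-11). Among ligands and receptors, Nrp2 had the largest negative one, -2.97 ± 0.10 (SE, adjusted p = 3.14e-12). Part of the Efnb2 term came from the control cells, in which it was lower at day 7. The Nrp1 term, -2.11, came more from the control cells than from ND1 cells. Between the days Nrp1 changed by 1.60 log2 units in control cells and by -0.51 in ND1 cells, which was not called.

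For genes at or above 5 FPKM in ND1 day 7 and at least 4-fold above control day 2, the day 2 rise was expressed as a percentage of the day 7 rise, both over control day 2. In 31 members, this percentage had a median of 17.2, an interquartile range of 16.3 to 18.1 and a full range of 14.8 to 51.1. Over all 1951 such genes, the median was 16.7 and the interquartile range 15.4 to 17.7. Most of these members had thus made nearly the same part of their day 7 rise by day 2, and so had most rising genes of the transcriptome. Efnb2 had the lowest percentage, 14.8. The highest belonged to Sema4a, a class 4 semaphorin, at 51.1, Unc5a at 26.0 and Ephb1 at 20.6. Sema4a was singled out after its values were seen. It read 0.939, 0.891 and 0.816 FPKM in control day 2, 3.55, 3.30 and 3.22 in ND1 day 2 and 5.5, 5.6 and 6.07 FPKM in ND1 day 7 libraries. Epha8, below the 5 FPKM limit and also singled out afterwards, read 1.55, 1.75 and 1.88 FPKM in ND1 day 2 and 1.82, 1.89 and 2.02 FPKM in ND1 day 7 libraries. Both had made a larger part of their day 7 rise by day 2 than most members.

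**Figure D3:**
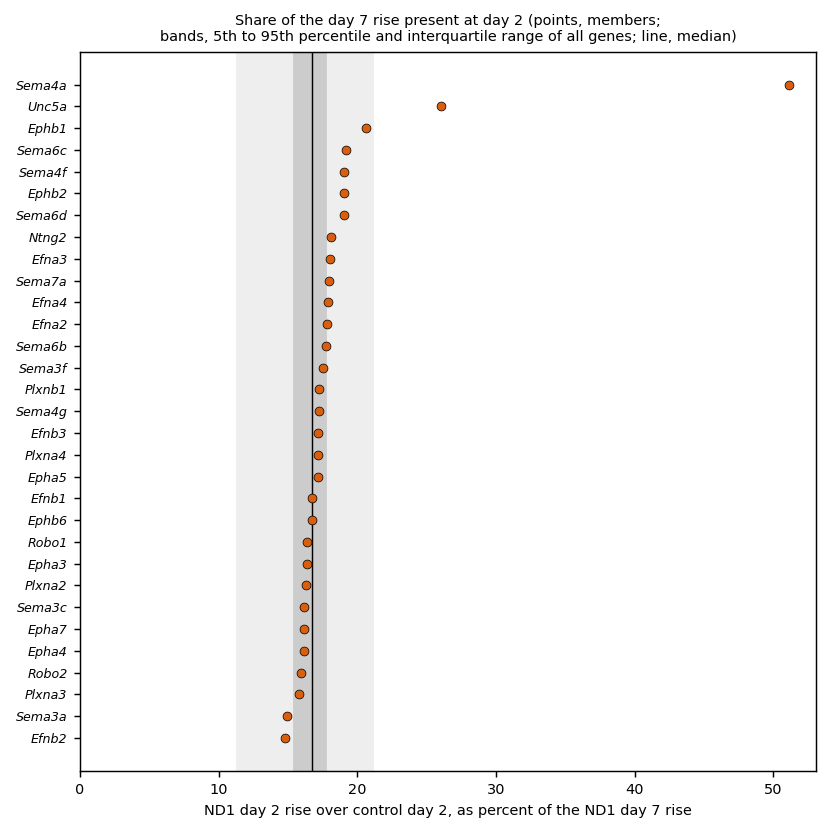
Each point is a member's rise over control day 2 at ND1 day 2, as a percentage of its rise at ND1 day 7, and the bands and line give the same over 1951 genes. All members but Sema4a and Unc5a lay between 14.8 and 20.6%, next to the all-gene median of 16.7%.

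Cortical neurons served as the reference for the converted cells. Against control day 7, 42 members were higher in neurons, where 28.1% of all tested genes were, and 7 were lower, where 25.3% were. The same control libraries enter this comparison and that of ND1 day 7, so values are set side by side only. Log2 changes against control day 7 were 5.36 in neurons and 4.92 in ND1 day 7 cells for Efnb3, 5.31 and 4.95 for Sema7a, 5.12 and 4.71 for Ntng2, and 4.37 and 4.96 for Efnb2. For the falling genes they were -4.33 and -3.14 for Sema4d, -3.84 and -2.66 for Plxnb2, -3.28 and -2.40 for Nrp1, and -3.24 and -3.02 for Nrp2.

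In direct comparison, ND1 day 7 cells and neurons differed in fewer members. Of the 63, 12 were higher in ND1 day 7 cells, where 7.29% of all tested genes were, and 4 were lower, where 6.24% were. The 12 were the ligands Efna4, Sema4c and Sema4d and the receptors Plxna2, Plxna4, Plxnb1, Plxnb2, Epha4, Epha7, Ephb1, Ephb2 and Robo1. The 4 were the ligands Sema3e, Sema6a and Slit2 and the receptor Epha10.

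Among the members higher in ND1 cells, Efna4, a lipid-anchored ephrin, read 7.71, 7.78 and 7.57 FPKM in ND1 day 7 and 1.35, 1.30 and 1.37 FPKM in neurons, a log2 difference of 1.89 ± 0.08 (SE, adjusted p = 8.66e-11). Plxna2 read 38.4, 38.9 and 38.7 against 12.8, 12.3 and 11.1 FPKM, and Plxna4 43.4, 43.7 and 43.1 against 16.1, 15.1 and 13.6 FPKM. The 2 type A plexins thus exceeded their level in neurons by 1.61 ± 0.07 and 1.48 ± 0.08 log2 units. Ephb1 differed by 1.58 ± 0.05 and Sema4c by 1.49 ± 0.05. Sema4d (1.19 ± 0.07) and Plxnb2 (1.17 ± 0.08) were also among them. These 2 genes were higher still in control microglia, and all 14 tested myeloid markers were likewise higher in ND1 day 7 cells than in neurons, at a summed 871 to 1190 against 40.4 to 44.2 FPKM. Their part in the difference of Sema4d and Plxnb2 was not tested.

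Among the members lower in ND1 cells, Sema3e, a class 3 semaphorin that binds plexin D1 without a neuropilin, read 0.697, 0.680 and 0.595 FPKM in ND1 day 7 and 7.49, 6.74 and 6.23 FPKM in neurons, a log2 difference of -2.24 ± 0.06 (SE, adjusted p = 4.58e-13). Slit2 read 2.21, 2.34 and 2.30 against 8.18, 7.91 and 6.86 FPKM, a difference of -1.39 ± 0.07 (SE, adjusted p = 8.35e-10). Epha10, an Eph receptor without kinase activity, read 0.318, 0.301 and 0.296 against 2.78, 3.33 and 2.68 FPKM. For these 3 genes, every neuron library lay above every ND1 library. Sema6a, a transmembrane semaphorin that binds type A plexins, differed by -1.06 ± 0.06.

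The remaining members were not called, which does not show that they were alike. Efna3 read 25.7, 24.1 and 24.3 FPKM in ND1 day 7 and 19.2, 22.3 and 22 FPKM in neurons, a difference of 0.22 ± 0.15 (SE, adjusted p = 0.209). Epha5, a receptor of lipid-anchored ephrins, read 14.1, 15.6 and 14.4 against 15.9, 15.2 and 13.5 FPKM. The Epha5 libraries overlapped between the groups, while every ND1 library of Efna3 lay above every neuron library by less than a call requires. Among the uncalled members were Sema7a (-0.36 ± 0.07, adjusted p = 2.13e-04) and Dcc (-0.47 ± 0.07, adjusted p = 2.48e-05), each slightly below neurons at an adjusted p under the threshold. Summed over families, plexins were above neurons and Slits below: the plexin sum was 168.8 to 173.8 FPKM in ND1 day 7 and 79.9 to 93.0 FPKM in neurons, and the Slit sum was 7.30 to 7.74 and 13.6 to 15.5 FPKM.

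**Figure D4:**
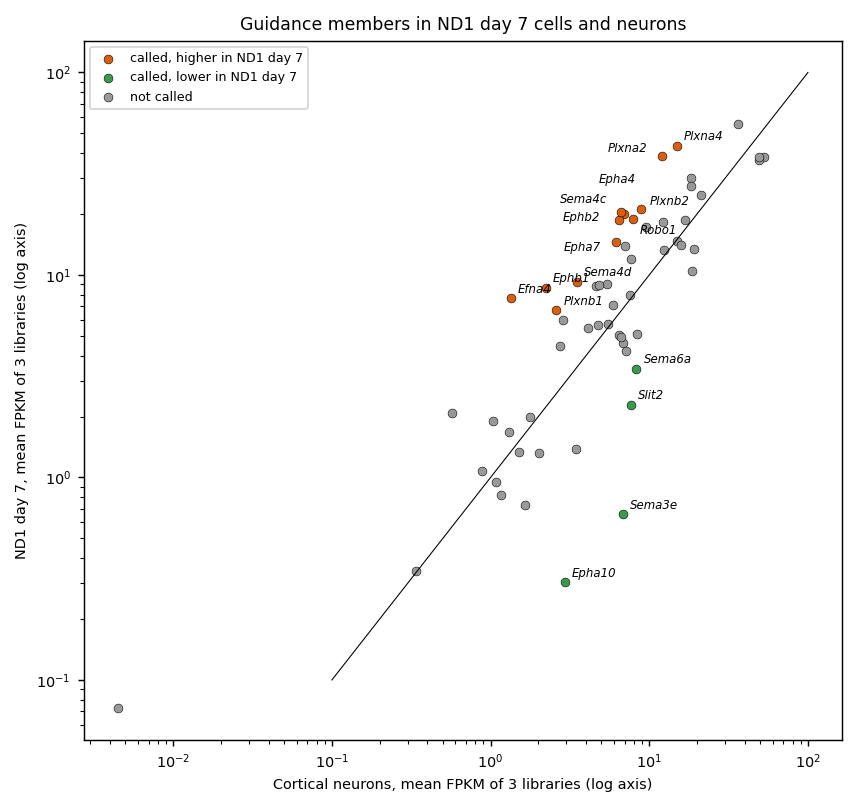
Each point is a tested ligand or receptor, placed by its mean FPKM in neurons and in ND1 day 7 cells (both axes logarithmic), with equality as a line. The 12 members called higher in ND1 day 7 cells lay above the line and the 4 called lower, led by Sema3e, below it.

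DNA methylation was read at the start sites of the members, where 5-methylcytosine at CpG sites usually goes with silence of a gene. RefSeq promoter entries (GRCm38.p6, the assembly called mm10) were found for 63 of the 74 symbols, at 79 start sites. They run from 250 bases before to 50 bases after the start. Entries were not used for Dcc, Efnb3, Ntn1, Plxna1, Plxna4, Plxna4os1, Sema3b, Sema3f, Sema6a, Slit1 and Unc5d. The 250 bases before the start are shown, 5′ to 3′ on the gene's strand with each CpG in capitals, for members that have such an entry: the 3 of them that rose most at day 7, the 1 that fell most, and the 3 with the largest methylation differences.
Efnb2 (rose, chr8:8661243-8661492, minus strand): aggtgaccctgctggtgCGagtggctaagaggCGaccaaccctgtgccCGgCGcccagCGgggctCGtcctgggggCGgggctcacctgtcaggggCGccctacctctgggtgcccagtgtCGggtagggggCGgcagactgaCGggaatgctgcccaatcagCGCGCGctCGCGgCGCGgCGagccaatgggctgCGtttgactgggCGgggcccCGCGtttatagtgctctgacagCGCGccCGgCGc
Sema7a (rose, chr9:57939862-57940111, plus strand): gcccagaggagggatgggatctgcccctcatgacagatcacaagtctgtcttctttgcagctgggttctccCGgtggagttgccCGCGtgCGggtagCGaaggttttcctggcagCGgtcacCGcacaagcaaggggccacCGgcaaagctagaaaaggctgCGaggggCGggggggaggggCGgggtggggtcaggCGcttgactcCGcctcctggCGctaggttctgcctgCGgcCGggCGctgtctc
Ntng2 (rose, chr2:29248100-29248349, minus strand): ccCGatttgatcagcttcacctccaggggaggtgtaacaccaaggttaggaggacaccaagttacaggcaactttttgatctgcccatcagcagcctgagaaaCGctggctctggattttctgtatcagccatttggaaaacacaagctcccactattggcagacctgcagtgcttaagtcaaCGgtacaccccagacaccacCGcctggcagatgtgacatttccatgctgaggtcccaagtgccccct
Sema4d (fell, chr13:51756684-51756933, minus strand): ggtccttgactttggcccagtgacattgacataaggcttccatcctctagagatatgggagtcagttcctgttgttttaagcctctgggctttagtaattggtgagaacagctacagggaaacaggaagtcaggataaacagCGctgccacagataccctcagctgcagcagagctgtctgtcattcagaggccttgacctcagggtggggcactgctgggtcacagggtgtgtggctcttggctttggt
Efnb1 (methylation difference, chrX:99135811-99136060, plus strand): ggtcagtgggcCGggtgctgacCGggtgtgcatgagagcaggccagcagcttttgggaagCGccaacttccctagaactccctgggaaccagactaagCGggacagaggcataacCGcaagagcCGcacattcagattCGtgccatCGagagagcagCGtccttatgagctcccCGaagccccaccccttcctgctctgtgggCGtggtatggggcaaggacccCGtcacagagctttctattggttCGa
Sema4a (methylation difference, chr3:88459102-88459351, minus strand): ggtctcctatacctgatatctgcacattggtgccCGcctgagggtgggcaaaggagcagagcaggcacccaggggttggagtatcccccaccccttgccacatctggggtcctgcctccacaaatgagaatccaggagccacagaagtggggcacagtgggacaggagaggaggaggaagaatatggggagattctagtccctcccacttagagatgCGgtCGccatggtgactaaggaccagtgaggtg
Robo2 (methylation difference, chr16:75092771-75093020, minus strand): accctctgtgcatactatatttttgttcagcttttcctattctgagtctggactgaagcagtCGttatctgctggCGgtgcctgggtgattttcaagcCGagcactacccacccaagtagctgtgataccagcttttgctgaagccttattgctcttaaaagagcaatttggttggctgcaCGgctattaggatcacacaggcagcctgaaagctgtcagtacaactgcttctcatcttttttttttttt

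The upstream sequences of strongly rising genes were of both kinds, rich and poor in CpG. Efnb2 held 27 CpGs in its 250 bases and Sema7a 17, against 4 for Ntng2. The start of Sema4d shown here, which lies inside the gene, held 1. Most member starts carried little methylation. Over 69 member starts of 58 genes with at least 5 CpGs read in both libraries, the median methylation was 1.94% in control microglia and 1.69% in ND1 cells. It was under 10% at 59 starts in control and 57 in ND1 cells, which is 85.5% and 82.6%. Over all 18869 start sites measured in the same way, 70.8% were under 10% in control microglia. With 1 library per condition there is no replicate check, and the coverage behind each CpG is unknown.

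Methylation at the starts of the strongest rising and falling genes differed from gene to gene. The Efnb2 start, with 35 CpGs read, stood at 1.35% in control and 1.31% in ND1 cells, and the Sema7a start, with 19, at 3.73% and 1.67%. Among falling genes, Nrp1 stood at 0.859% and 0.494%, Nrp2 at 0.293% and 0.706%, Plxnc1 at 0.758% and 0.240%, and the 2 Plxnb2 starts at 0.497% and 4.0% in control and 0.631% and 6.02% in ND1 cells. Sema4d and Plxnb3 had under 5 CpGs at each start used. The Sema4d start shown, with 2, read 10.1% and 5.97%. Its other starts, with 3 each, read 83.9% and 85.3% in control and 84.2% and 87.4% in ND1 cells. These Sema4d starts lie inside the gene, which spans chr13:51685529-51793678 on the minus strand. The outermost start of Sema4d was therefore not measured. Plxnb3, with 4 CpGs, read 78.1% and 91.3%. Between the libraries, the median difference over member starts was -0.04 percentage points. Ntng2, among the strongest risers, stood at 42.5% and 42.2% over its 6 CpGs.

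A single member start moved by 10 points or more, 1.45% of those measured against 1.34% of all starts. Efnb1, an X-linked transmembrane ephrin, read 15.6% in control and 31.1% in ND1 cells over 10 CpGs, while its RNA rose from 1.31, 1.69 and 1.74 to 9.37, 8.67 and 8.38 FPKM between control and ND1 at day 7. Methylation and RNA were thus both higher. Over 1000 bases on each side of the same start, Efnb1 read 22.2% and 20.8%, so the difference was not seen in the wider window. Of the other starts, the Sema4a start shown above read 52.9% and 45.4% over 5 CpGs, and the Robo2 start shown read 42.4% and 38.1% over 5 CpGs. Over 1000 bases on each side, they read 48.3% and 49.9% for Sema4a and 48.1% and 50.7% for Robo2. A further Sema4a start, whose window overlaps the one shown, went the other way, from 42.6% to 48.2% over 14 CpGs. Another Sema4a start read 86.5% and 83.4% over 7 CpGs. The other 2 Robo2 starts were at 1.16% and 3.97% in control and 2.35% and 5.69% in ND1 cells.

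**Figure D5:**
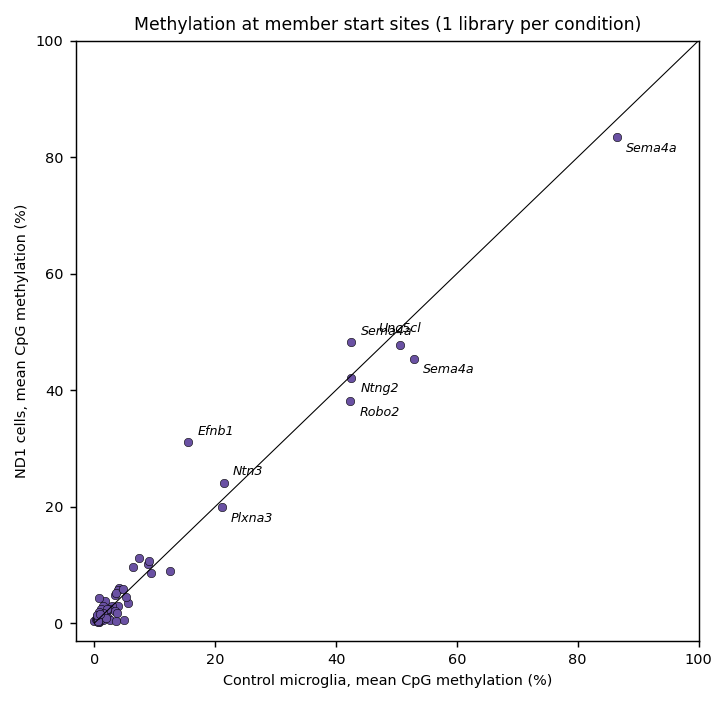
Each point is a member start site with at least 5 CpGs, placed by its mean CpG methylation in percent in the control and the ND1 bisulfite library, with equality as a line. Most of the 69 starts cluster under 10% on both axes, and Efnb1 stands off the line at 15.6% and 31.1%.

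The E-box CANNTG, the core motif of basic helix-loop-helix factors, was searched for in the 300 bases around each start on both strands. It occurred at 41 of 79 member starts, 51.9%, against 72.3% of 32851 starts of all genes. Its form CAGATG, with the reverse complement CATCTG, occurred at 6 member starts (7.59%) against 17.2% of all starts. CAGCTG occurred at 12 (15.2%) against 16.3%. Of the sequences shown, Ntng2 held 3 E-boxes, 1 of them CAGATG or its complement, Efnb2 held 1 and Efnb1 held none. CANNTG includes both other motifs, and a match is a description of letters.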

How the data were processed

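RNA libraries were made from messenger RNA, per the labels' protocols. The authors deposited FPKM per gene for each sample, computed per the submitters' processing notes with TopHat, Bowtie2, Cufflinks and Cuffdiff on mm10, with no versions given. The bisulfite files hold the authors' methylation fraction per CpG, with no coverage. No read counts were used, so no count model was fitted and the absolute depth is unknown. From the steps between low FPKM values, the worth of 1 read was estimated relative to control day 2 replicate 1. It was 0.93 to 1.13 times as much in control and 0.95 to 1.01 times in ND1 day 2 libraries. In ND1 day 7 and neuron libraries it was 0.73 to 0.84 times, so relative depth was not the same in all groups.

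Members and lists were chosen with earlier results of these data known. FPKM was tested as log2(FPKM + 1) with limma 3.58.1 (R 4.3.3, trend on) over 5 groups, 10 residual degrees of freedom and 7 comparisons, after a filter of 1 FPKM in 3 libraries. In a seeded simulation, a small part of the genes was changed by more than the size of a call. There limma recovered most of the changed genes, as the run required. Far more genes were called in the real data, so the simulation checks the code and not these calls. Named members were the 3 highest of each family and the 5 with the largest called change in each direction of each comparison. Promoter methylation was the mean over CpGs read in both libraries (15113549 positions), with at least 5 per start. Alternatives were a pseudocount of 0.1, filters, quantile and median-of-ratios scaling, a replicate block, only the groups compared, and leaving out libraries.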

Additional observations from a re-analysis of the deposited data

Results flagged for a closer look

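These members had an ND1 effect that differed between day 7 and day 2 by limma's test of the difference itself (adjusted p between 1.33e-12 and 6.85e-07), and the values are the day 7 effect minus the day 2 effect in log2 units. Among receptors of semaphorins, the difference was -2.97 for Nrp2, -2.11 for Nrp1, -2.17 for Plxnb2, -1.29 for Plxnb3, 1.70 for Plxna4 and 2.04 for Plxna2. Among semaphorins it was -2.76 for Sema4d, 1.01 for Sema6a and 2.36 for Sema7a, and for the noncoding Plxna4os1 it was -3.08. Among ephrins it was 3.31 for Efnb2, 2.52 for Efnb3, 2.06 for Efna3 and 1.5 for Efna4. Among Eph receptors it was 2.24 for Epha3, 2.20 for Epha4, 1.91 for Ephb6, 1.71 for Ephb1 and 1.39 for Ephb2. For the Slit system it was 2.56 for Robo2, 2.13 for Robo1 and 1.21 for Slit1. For the netrin system it was 2.17 for Ntng2, 1.68 for Dcc, 1.56 for Unc5c and 1.40 for Unc5a. The term for Sema6a fell just under 1 log2 unit on leaving out any of 6 libraries, and that for Efna4 was 0.96 with a pseudocount of 0.1. For Nrp1, the change between the days was 1.60 in control cells and -0.51 in ND1 cells.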

How the results depend on the processing

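Across the alternatives run, no call of a named member reversed direction. A count was taken to have moved when it differed by more than 1.5 times. With a pseudocount of 0.1, members higher in ND1 than control at day 2 went from 25 to 39, members higher in control day 7 than day 2 from 1 to 10, and members lower there from 2 to 4. With quantile normalization, the day 2 counts were 14 higher and 1 lower in place of 25 and 0, and the members lower in control day 7 than day 2 went from 2 to 0. Counts over all tested genes moved too. Genes higher in ND1 at day 2 went from 1237 to 2367 with the pseudocount of 0.1 and to 817 with quantile normalization. Counts that changed by less included, with a pseudocount of 0.1, members higher in ND1 day 7 than day 2 (37 to 46), in ND1 than control at day 7 (42 to 47), in the interaction (34 to 40) and in ND1 day 7 than neurons (12 to 15), and, with the 5 FPKM filter, which tests fewer members, higher in neurons (42 to 36) and in ND1 at day 7 (42 to 37). With no filter, members higher in control day 7 than day 2 went from 1 to 2. Leaving out 1 library at a time gave 0 to 2 members lower in control day 7 than day 2, with 0 without control day 7 replicate 1. On leaving out libraries, the other counts changed by at most 1, such as 41 to 43 members higher in neurons and 25 to 26 higher in ND1 at day 2. Of the named members, 8 of 140 calls were lost with quantile normalization and 14 of 996 on leaving out libraries, all because the size of the change fell under 1 log2 unit while the adjusted p stayed under 0.05. Under quantile normalization, the smallest was 0.72, for Efna4 at day 2.

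Replicate numbers are shared between groups, but same-numbered libraries did not deviate together: of 30 pairs, 2 had a correlation over 0.1, and the range was -0.23 to 0.16. With a replicate block, 25 and 42 members were called higher in ND1 at day 2 and day 7 and 0 and 8 lower, as without it, and no call of the 140 changed. The percentage of the day 7 rise present at day 2 had a median of 16.9 over 16 members above 10 FPKM and 20-fold, and of 17.6 over 30 members with control day 7 as the baseline. The median methylation difference over member starts was 0.25 points in the wider window. Low FPKM limits what can be said of the 11 untested symbols.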
